A study of Mus musculus with 4 samples.

Results

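The 6 metabotropic glutamate receptor genes Grm2, Grm3, Grm4, Grm5, Grm7 and Grm8 were taken by symbol from the 29300 genes of the deposited hippocampal count table, and all 6 were among the 17144 genes with enough counts to be tested. Hippocampal RNA came from male C57BL/6 mice aged 7 to 8 months, with 2 control and 2 perioperative neurocognitive disorder (PND) mice. Both groups were given isoflurane anesthesia and tramadol, and the PND mice also had an open tibial fracture with intramedullary nailing. Tissue was collected on day 1 after the operation. The control group therefore shows what the fracture adds to anesthesia and analgesia, not what these do on their own, and a whole hippocampus mixes neurons, glia and vessels.

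Metabotropic glutamate receptors are G protein-coupled receptors that modulate synapses and do not themselves form ion channels. Group I receptors, here Grm5, signal through Gq and phospholipase C, sit mostly at the edge of the postsynaptic density and are needed for forms of long-term depression. Group II (Grm2 and Grm3) and group III (Grm4, Grm7 and Grm8) couple to Gi/o and lower cyclic AMP. Most of them act on nerve terminals as brakes on transmitter release, while Grm3 is also abundant in astrocytes.

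Total counts ran from 15763432 to 18573386 per mouse. Transcripts of the mitochondrial genome that encode proteins took 2.52% to 2.82% of the counts in control mice and 4.44% to 4.48% in PND mice. Defining markers of neurons, hippocampal subfields, astrocytes, oligodendrocytes, microglia and endothelium were detected in every mouse, as the label hippocampus requires. The summed level of 4 choroid plexus markers (Ttr, Kl, Folr1 and Clic6) was 123 CPM (read counts scaled to a common library size) in 1 control mouse and 2042 to 5296 in the other 3 mice, so that the control mice differed most among themselves here. The part of these differences in the receptor results was not tested. Leaving out each mouse bears on the choroid plexus difference only, since the mitochondrial share separated the groups fully. The summed markers of thalamus, striatum and cerebellum lay between 1.65 and 78.2 CPM in all mice, against 4719 to 5286 CPM for the neuronal markers, and none of their 12 genes passed the test.

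Receptors of all 3 groups were among the genes that changed. Compared with controls, the PND mice had 43.5% more Grm5, of group I. Grm2 of group II fell by 29.4% and Grm4 of group III fell by 39.5%. Grm3, Grm7 and Grm8 did not pass the test. With a correction for transcript GC content and length, described with the GC values, none of the 6 passed. Levels are given as CPM after scaling by the trimmed mean of M-values (TMM), and a gene passed when its Benjamini-Hochberg adjusted p over the 17144 genes, by the quasi-likelihood test of edgeR, was under 0.05. By this rule 26.0% of all genes tested passed, 13.1% higher and 12.8% lower in PND mice, so that 1 of 6 receptors higher and 2 of 6 lower is read against a background in which such calls were common. The median log2 fold change of the 6 was -0.06, against 0.01 for all genes tested. In bulk tissue, fewer cells of a type and less RNA per cell cannot be told apart. Nothing in the labels ties the mice of 1 group to separate litters or days, so the p-values measure only the spread between these samples.

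**Figure D1:**
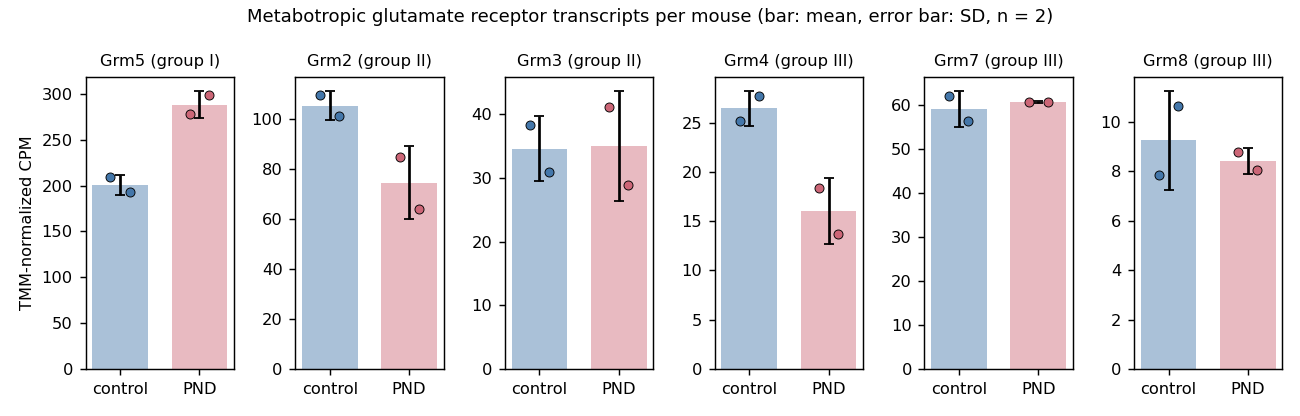
TMM-normalized CPM of each receptor gene in each mouse (points), with the group mean (bar) and SD (error bar, n = 2 mice per group), on separate linear axes that start at 0. Grm5 lies higher and Grm2 and Grm4 lie lower in each PND mouse than in either control mouse, and the groups overlap for Grm3, Grm7 and Grm8.

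Grm5 (ENSMUSG00000049583) encodes mGlu5, the postsynaptic group I receptor of pyramidal cells that is also found in astrocytes. The gene spans chromosome 7, 87584168 to 88134907, on the plus strand of mm10. It had 3597 and 3529 counts in the controls and 4432 and 5043 in PND mice, which is 209 and 193 CPM against 278 and 299 CPM. Both PND mice lay above both control mice, although their libraries held fewer counts in total. The mean was 201 ± 11.1 CPM in controls and 288 ± 14.8 CPM after fracture (SD, n = 2 per group). Its log2 fold change of 0.52 (standard error 0.07, 95% interval 0.35 to 0.69) had an adjusted p of 0.0055 by edgeR's quasi-likelihood test, and it stayed between 0.46 and 0.57, with an adjusted p under 0.05, on leaving out any 1 mouse. With the GC and length correction it was 0.30 and no longer passed (adjusted p = 0.081 by edgeR). At 1.44-fold it did not reach the study's 1.5-fold threshold, which 6.75% of genes passed upward together with the test.

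Grm2 (ENSMUSG00000023192) encodes mGlu2, a presynaptic autoreceptor that is prominent in the dentate gyrus and its mossy fibres. It lies on chromosome 9, 106643095 to 106656082, on the minus strand. Its counts were 1885 and 1848 in the controls and 1351 and 1081 in PND mice, or 109 and 101 CPM against 84.7 and 64.1 CPM. The groups did not overlap, but the 2 PND mice differed more from each other (SD 19.6% of the mean) than the 2 control mice did (5.59%). On the log2 scale the difference was -0.50 (standard error 0.13, 95% interval -0.82 to -0.18, adjusted p = 0.035 by edgeR). This call rested on single mice. Without the second PND mouse the log2 fold change was -0.31 (adjusted p = 0.058 by edgeR) and without the first it was -0.73, while without the first control mouse it was -0.45 (adjusted p = 0.078 by edgeR).

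Grm3 (ENSMUSG00000003974), the other group II gene, encodes mGlu3, the receptor for which the dipeptide N-acetylaspartylglutamate is a known agonist. It lies on chromosome 5, 9485541 to 9725170, on the minus strand, and had 38.3 and 31.0 CPM in the controls and 41.1 and 28.9 CPM in PND mice. The groups overlapped fully, since both control mice lay between the PND mice. The log2 fold change of 0.02 (standard error 0.18) had a 95% interval from -0.42 to 0.46, and an adjusted p of 0.96 by edgeR. It was -0.27 without the first PND mouse and 0.26 without the second, so neither a rise nor a fall of that size could be told from these mice. Whether Grm2 and Grm3 differ in response is not shown by 1 passing and the other not, and their intervals overlap. The log2 ratio of Grm3 to Grm2 counts, which does not depend on library scaling, was -1.52 and -1.71 in the controls and -1.04 and -1.15 in PND mice. These ratios, like the others given, were chosen after the values were seen, and with 2 mice per group the exact two-sided permutation test cannot give a p below 0.33.

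The promoters of Grm2 and Grm3 are shown so that the 2 genes of group II, of which Grm2 passed and Grm3 did not, can be compared. They are the RefSeq sequences of GRCm38.p6 (mm10), from 250 bases before to 50 after the annotated start, and capitals mark each GC box (GGGCGG on either strand), the motif bound by Sp1-type factors. The Grm2 window is chr9:106656060-106656359 and the Grm3 window chr5:9725303-9725602, both on the minus strand and written 5′ to 3′.
Grm2: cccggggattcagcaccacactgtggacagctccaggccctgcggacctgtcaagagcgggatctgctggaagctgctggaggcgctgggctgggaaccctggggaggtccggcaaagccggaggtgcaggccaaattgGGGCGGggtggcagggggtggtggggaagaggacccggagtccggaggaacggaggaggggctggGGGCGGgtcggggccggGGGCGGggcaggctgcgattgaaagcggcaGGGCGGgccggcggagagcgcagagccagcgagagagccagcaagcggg
Grm3: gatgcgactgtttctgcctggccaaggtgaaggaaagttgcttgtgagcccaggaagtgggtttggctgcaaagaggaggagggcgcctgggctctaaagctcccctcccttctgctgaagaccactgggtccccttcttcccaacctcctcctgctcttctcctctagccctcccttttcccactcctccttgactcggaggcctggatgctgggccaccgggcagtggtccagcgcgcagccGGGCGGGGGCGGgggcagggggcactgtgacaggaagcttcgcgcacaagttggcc
The Grm2 window held 4 GC boxes, 22 CpG dinucleotides and 72.0% GC, more GC than 93.1% of the 32851 promoters in the table. The Grm3 window held 2 GC boxes that adjoin each other, 11 CpG and 63.7% GC. At least 1 GC box was found in 35.7% of all promoters, where the median GC content was 52.7%. Neither window held TGACGTCA, the cyclic AMP response element (in 1.79% of promoters), or the core of the NRF-1 site (in 4.60%). These matches describe letters in the window only. The Grm3 window lies wholly upstream of the gene coordinates given above, while the Grm2 window reaches into its gene. Of the other members, Grm7 and Grm8 were listed with a promoter and Grm4 and Grm5 were not.

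Grm4 (ENSMUSG00000063239) encodes mGlu4, a presynaptic group III receptor. Its deposited coordinates are chromosome 17, 27422387 to 27513341, on the minus strand. It had 434 and 506 counts in the controls and 293 and 231 in PND mice, or 25.2 and 27.7 CPM against 18.4 and 13.7 CPM. Both PND mice lay below both control mice. The mean fell from 26.4 ± 1.76 to 16.03 ± 3.31 CPM (SD, n = 2 per group). On the log2 scale it fell by 0.72 (standard error 0.16, 95% interval -1.10 to -0.35, adjusted p = 0.019 by edgeR). Among the 6 receptors this was the change furthest from 0 and the one that reached 1.5-fold, which it did not reach without the second PND mouse (log2 fold change -0.52). Of all genes tested, 2.18% had a lower log2 fold change, and 2.09% were lower by at least 1.5-fold and passed the test. Without the second control mouse the adjusted p was 0.061 by edgeR, with a log2 fold change of -0.66, and without the first PND mouse the log2 fold change was -0.97.

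Grm7 (ENSMUSG00000056755) encodes mGlu7, which sits in the active zone of the terminal and has a low affinity for glutamate. It lies on chromosome 6, 110645581 to 111567230, on the plus strand. Its CPM were 62.0 and 56.3 in the controls and 60.6 and 60.8 in PND mice. Both PND mice fell between the control mice. The log2 fold change of 0.04 (standard error 0.08) had a 95% interval from -0.15 to 0.23, the narrowest of the 3 receptors that did not pass, and an adjusted p of 0.76 by edgeR.

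Grm8 (ENSMUSG00000024211) encodes mGlu8, another presynaptic receptor, on the minus strand of chromosome 6, 27275119 to 28135178. It was the member with the fewest counts, 135 and 195 in the controls and 140 and 136 in PND mice. The CPM were 7.84 and 10.7 against 8.78 and 8.06, and both PND mice fell between the control mice. PND minus control was -0.14 on the log2 scale (standard error 0.20) with a 95% interval from -0.62 to 0.34 and an adjusted p of 0.65 by edgeR, and it was 0.10 without the second control mouse and -0.35 without the first. The interval holds both 0 and a change as large as that of Grm2.

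By receptor group, the median log2 fold change was 0.52 in group I (1 gene), -0.24 in group II (2 genes) and -0.14 in group III (3 genes). The group II median was -0.14 without the first control mouse, -0.026 without the second PND mouse and -0.50 without the first. That of group III was -0.35 without the first control mouse, -0.035 without the second, -0.22 without the first PND mouse, -0.074 without the second and -0.38 with the correction for GC content and length. Group I had 1 gene higher, group II 1 lower and 1 that did not pass, and group III 1 lower and 2 that did not pass. The 3 receptors that passed were also the 3 whose groups did not overlap, as was the case for 65.5% of all genes tested. The summed CPM of group I was 209 and 193 in the controls and 278 and 299 in PND mice. That of group II was 148 and 132 against 126 and 93.0 CPM, and that of group III was 95.03 and 94.6 against 87.7 and 82.5 CPM. In each case the PND mice lay on 1 side of the control mice, above for group I and below for groups II and III.

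Compared per kilobase of exon, since longer transcripts yield more reads, Grm2 had the highest mean in control mice at 21.5 ± 1.20 CPM per kb (SD, n = 2). Grm5 followed at 19.6 ± 1.09 CPM per kb, Grm3 at 11.4 ± 1.69, Grm7 at 10.05 ± 0.685, Grm4 at 4.42 ± 0.294 and Grm8 at 0.935 ± 0.202 (CPM per kb, SD, n = 2 control mice). Grm3 and Grm7 did not differ beyond their spread, while the other neighbours in this order did not overlap. In PND mice Grm5 came first at 28.1 ± 1.44 CPM per kb and Grm2 second at 15.2 ± 2.99 CPM per kb (SD, n = 2), with Grm2 and Grm3 overlapping (13.1 and 17.3 against 9.48 and 13.5 CPM per kb). The order depended on the length used. Per kb of the longest transcript, an alternative chosen after seeing the data, Grm5 was first in control mice as well, at 24.97 ± 1.38 against 22.3 ± 1.25 CPM per kb for Grm2, and Grm7 (14.05 ± 0.958) lay above Grm3 (11.4 ± 1.69 CPM per kb, SD, n = 2).

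The share of Grm5 in the summed CPM per kb of the 6 receptors was 28.8% and 29.0% in the controls and 37.6% and 44.7% in PND mice. The share of Grm2 was 31.6% and 31.8% in the controls and 24.0% and 20.1% in PND mice, and that of Grm4 was 5.95% and 7.13% against 4.26% and 3.51%. These 3 shares did not overlap between the groups, and the exact two-sided permutation test over the 4 mice gave its smallest possible p of 0.33 for each. The shares of Grm3, Grm7 and Grm8 overlapped. The log2 ratio of Grm5 to Grm2 counts, free of any scaling, was 0.93 in both control mice and 1.71 and 2.22 in PND mice.

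**Figure D2:**
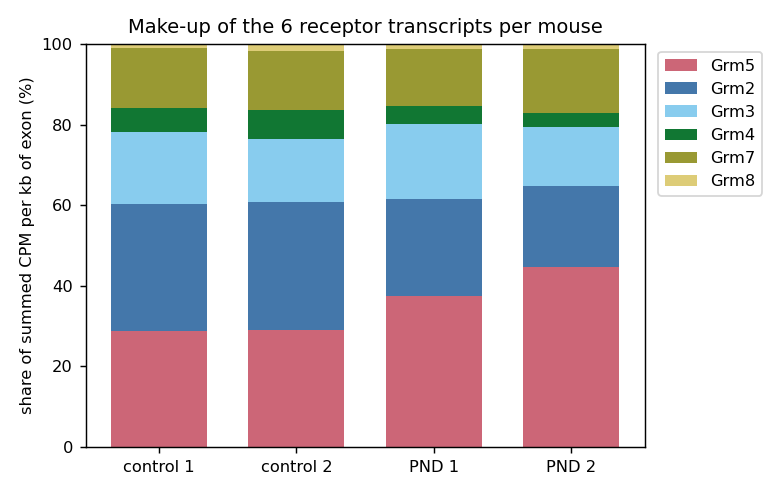
Share of each receptor in the summed CPM per kilobase of exon of the 6 receptors (stacked bars, percent, 1 bar per mouse). The Grm5 segment grows from 28.8% and 29.0% in the controls to 37.6% and 44.7% in PND mice, while the Grm2 and Grm4 segments shrink.

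For the 3 receptors that passed, the direction of the change was that of most called genes of like base composition. Over the 17120 genes with a known GC content, genes with more GC had lower log2 fold changes (Spearman's rho -0.64, across genes that share the 4 libraries and are not replicates). Grm4 and Grm2, the receptors that fell, had 59.8% and 57.8% GC and lay in the eighth of genes with the highest GC content. In that eighth the median log2 fold change was -0.34, and 38.3% of genes were lower and passed the test. Grm5, at 46.3% GC, lay in the third eighth, where the median was 0.18 and 14.2% of genes were higher and passed. Measured from the median of its own eighth, the log2 fold change was 0.35 for Grm5, -0.38 for Grm4 and -0.16 for Grm2. The receptors that did not pass had GC contents close to that of Grm5, and whether they differ from it was not tested. Grm8 (45.8% GC) stood 0.32 below the median of the same eighth on the log2 scale, Grm3 (47.6%) 0.16 below it, and Grm7 (48.1%) less than 0.01 from the median of the next. The log2 ratio of Grm5 to Grm7 counts was 1.75 and 1.78 in the controls and 2.198 and 2.30 in PND mice.

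**Figure D3:**
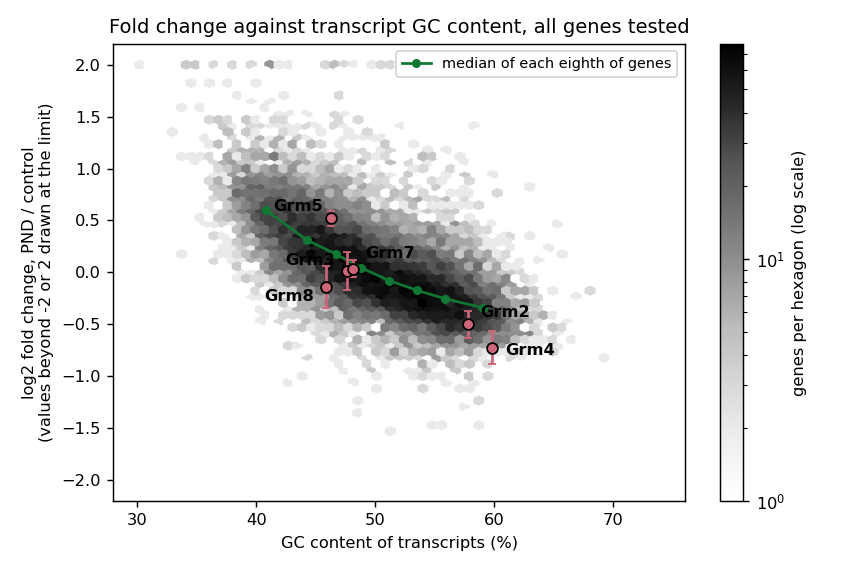
Log2 fold change (PND over control, vertical axis) against the GC content of transcripts in percent (horizontal axis) for all genes tested, with shading for the number of genes on a log scale, the median of each eighth of genes by GC content (green) and the 6 receptors with standard errors (red). Grm2 and Grm4 sit at the GC-rich end, where the median was -0.34, and Grm5 sits above the median of its eighth.

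When the trend of each library with transcript GC content and length was removed, 1.60% of genes passed and none of the 6 receptors did. The log2 fold change of Grm5 became 0.30 (adjusted p = 0.081 by edgeR, range over all 12 alternatives 3.2e-08 to 0.081), that of Grm4 -0.42 (0.19, range 0.0032 to 0.19) and that of Grm2 -0.25 (0.37, range 0.0022 to 0.37). The lowest value of each range came from DESeq2. The 3 receptors kept their sign under all 12 alternatives. Grm8 moved to -0.38, and Grm3 and Grm7 changed sign to -0.12 and -0.08. The part that base composition plays in the receptor changes was not tested beyond this correction.

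**Figure D4:**
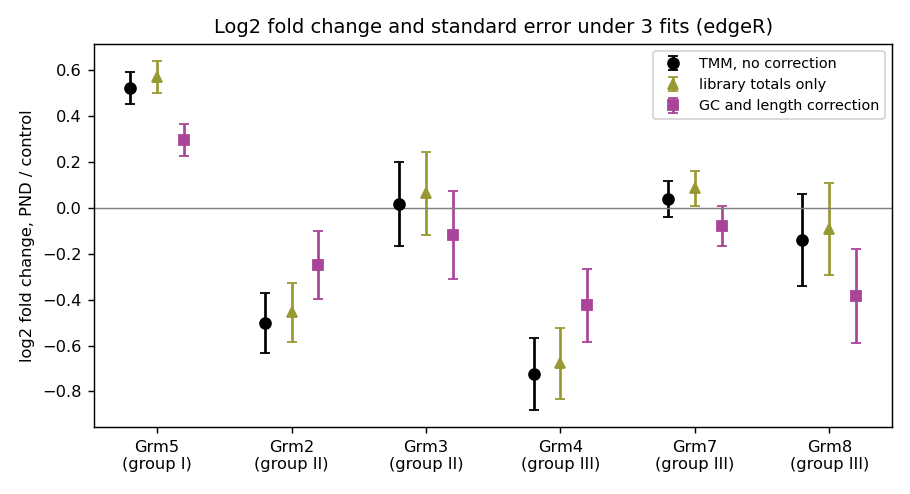
Log2 fold change of each receptor (PND over control) with its standard error, from edgeR with TMM scaling (black), with scaling by library totals only (olive) and with the GC and length correction (purple), n = 2 mice per group. With the correction Grm5, Grm2 and Grm4 move toward 0 without changing sign, from 0.52, -0.50 and -0.72 to 0.30, -0.25 and -0.42.

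The receptor genes differ in size and neighbours as well. Grm5, Grm7 and Grm8 span 551, 922 and 860 kb, Grm3 and Grm4 240 and 99.0 kb in GENCODE M21, and Grm2 13.0 kb. Of 75-nt windows in the transcripts, 0.22% of those of Grm8 and none of those of the other 5 occur in another gene, so reads were not split between the receptors. Grm8 exons share 96 bases with the microRNA gene Mir592 on the same strand. Grm2 exons overlap 470 bases of the antisense gene Gm28111, which had at most 1 count in any mouse. Grm7 exons overlap 130 bases of the antisense gene Gm20387, which had 23 and 22 counts in the controls and 40 and 42 in PND mice.

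Over the 4 libraries, the protein-coding genes whose centred log2 CPM lay nearest to Grm5 were Nucb2 and Klf3, with root mean square differences of 0.0080 and 0.0090 log2 units among 13853 genes compared. Armc6 and Vgf, a secreted neuropeptide precursor, lay nearest to Grm2 (0.016 and 0.021), and Il20rb and Ptges2 nearest to Grm4 (0.023 and 0.034). With 4 libraries this likeness is a description of shape only.

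Marker calls are read against the 13.1% of all genes tested that were higher and the 12.8% that were lower, or 26.0% in all. Among the cell type markers, those of astrocytes, which carry Grm3 and Grm5, were split. Of these 6, Aqp4 (log2 fold change 0.73) and Gja1 (0.36) were higher and Aldoc (-0.50) and Aldh1l1 (-0.49) lower. The summed level of the 6 was 1907 and 1983 CPM in the controls and 1658 and 1640 CPM in PND mice. Of 6 neuronal markers, Map2 was higher (0.53) and Tubb3 lower (-0.64). Of 6 interneuron markers, Pvalb (0.65) and Gad2 (0.32) were higher and Sst (-0.47) and Slc32a1 (-0.44) lower. P2ry12 (0.84), of 6 microglial markers, and Flt1 (0.41), of 4 endothelial markers, were higher. Cspg4 (-0.44), of 4 markers of oligodendrocyte precursors, was lower, and none of the 6 oligodendrocyte markers passed. With the GC and length correction Grik4 was the marker that passed (-0.49, adjusted p = 0.039 by edgeR). Map2 then stood at 0.17, P2ry12 at 0.19 and Gad2 at 0.019. Pvalb stood at 0.61, Aqp4 at 0.57, Wfs1 at -0.45 and Fibcd1 at -0.35, and these did not pass either. Of 6 hippocampal subfield markers, Wfs1 (-0.70) and Fibcd1 (-0.64) of CA1 and Grik4 (-0.61) of CA3 were lower, and the dentate granule cell markers Prox1 (0.43) and C1ql2 (-0.41) did not pass, nor did Bok (-0.39). The summed subfield level was 825 and 776 CPM in the controls and 650 and 584 CPM in PND mice. Every marker of these lists was detected in each mouse, and the part of cell composition in the receptor changes was not tested.

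Downstream of group I, the 13 genes of Gq signaling had 2 members higher, 4 lower and 7 that did not pass, with a median log2 fold change of -0.07. Here and for the lists that follow, the shares over all genes tested were 13.1% higher and 12.8% lower, or 26.0% in all, and 1.60% with the GC and length correction. Gna11, a Gq-class alpha subunit, fell from 205 ± 9.05 to 143 ± 6.49 CPM (SD, n = 2), or by 0.52 on the log2 scale. Dagla, the diacylglycerol lipase that makes the endocannabinoid released after mGlu5 activation, fell by 0.51 on the log2 scale, and Itpr1, the IP3 receptor of the endoplasmic reticulum, fell by 0.37. Adjusted p-values of the 3 were 0.0049 to 0.013 by edgeR. The 2 members that were higher, named after their values were seen, were Gnaq (log2 fold change 0.25), the main G protein alpha subunit of the pathway, and the phospholipase Plcb1 (0.27), with adjusted p-values of 0.025 and 0.046 by edgeR. With the correction Gnaq stood at 0.094 and Plcb1 changed sign to -0.010. With the GC and length correction Gna11 stood at -0.30 and Dagla at -0.24. There Itpr1 alone of the list passed, at -0.46 (adjusted p = 0.039 by edgeR, and 2.8e-05 by DESeq2 without the correction).

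Among 14 anchoring partners, 2 were higher, 7 lower and 5 did not pass, with a median of -0.29, against 26.0% of all genes passing. Homer1, the scaffold that ties mGlu5 to the postsynaptic density and whose short form uncouples it, had 60.4 and 59.5 CPM in the controls and 118 and 96.0 in PND mice. It was 0.84 higher on the log2 scale (standard error 0.11, adjusted p = 0.0050 by edgeR), and the gene counts do not separate its forms. Grasp (tamalin), a scaffold of group I receptors, was lower at -0.58, and so was Ncdn (norbin), which binds mGlu5, at -0.48. No gene of this list passed with the GC and length correction, where Homer1 stood at 0.37, Grasp at -0.24 and Ncdn at -0.17.

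Of 23 genes of Gi/o and cyclic AMP signaling, which groups II and III use, 5 were higher, 11 lower and 7 did not pass, with a median of -0.12, where 26.0% of all genes passed. Kcnj3, a subunit of the G protein-gated potassium channel, rose from 63.7 ± 10.8 to 112 ± 5.48 CPM (SD, n = 2), or by 0.81 on the log2 scale. The G protein subunits Gng3 (-0.53) and Gnb2 (-0.49) fell. The count of 16 that passed was 10 without the first control mouse, 6 without the second and 10 without the second PND mouse. With the correction Kcnj3 stood at 0.43 and Gnb2 at -0.17. There Gng3 alone passed (-0.37, adjusted p = 0.0497 by edgeR, range over alternatives 1.9e-08 by DESeq2 to 0.0497).

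Of 11 genes of receptor desensitization, 1 was higher, 3 were lower and 7 did not pass, with a median of -0.21. This lies near the 26.0% of all genes that passed. Rgs2, which shortens Gq signals, was higher at 0.80, and the arrestin Arrb2 (-0.40) and Rgs14 (-0.38), a regulator enriched in CA2, were lower. None of the 11 passed with the correction, where Rgs2 stood at 0.48 and Arrb2 and Rgs14 both at -0.17.

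Of 14 genes that supply or clear the receptors' ligands, 4 were higher, 1 was lower and 9 did not pass, with a median of 0.17, again near the 26.0% over all genes. Slc7a11, the cystine-glutamate exchanger that releases glutamate from astrocytes, had 23.6 and 23.8 CPM in the controls and 44.1 and 69.8 in PND mice, or 1.27 higher on the log2 scale (standard error 0.21, adjusted p = 0.0082 by edgeR). Folh1, the enzyme that degrades N-acetylaspartylglutamate, was at 0.64 and the neuronal transporter Slc1a1 at 0.46, both higher. Folh1 passed in 4 of 12 alternatives. Its adjusted p by edgeR was 0.083 to 0.13 on leaving out any 1 mouse, and with the correction its log2 fold change was 0.075. There Slc7a11 stood at 0.79 and did not pass, nor did Slc1a1 at 0.43. The vesicular transporter Slc17a7, named after its value was seen, was the gene that fell (-0.39, or -0.16 with the correction). The count of 5 was 3 without the second control mouse and 3 without the first PND mouse.

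Of 13 genes of local translation in mGluR-dependent long-term depression, 5 were higher, 3 lower and 5 did not pass, with a median of -0.03, beside 26.0% of all genes. Fmr1, the translational repressor downstream of mGlu5, rose from 41.5 ± 2.81 to 76.7 ± 0.0134 CPM (SD, n = 2), or by 0.89 on the log2 scale (standard error 0.08, adjusted p = 0.0043 by edgeR). Its transcripts hold 38.6% GC. With the correction it stood at 0.15 (adjusted p = 0.34 by edgeR, the highest over the alternatives, the lowest being 5.4e-11 by DESeq2). Rps6kb1, a kinase that acts on ribosomes, was higher at 0.50 and the elongation factor Eef2 lower at -0.47. With the correction Rps6kb1 stood at 0.0047 (adjusted p = 0.98 by edgeR) and Eef2 at -0.22. The count of 8 was 5 without either control mouse, and 0 with the correction.

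In all 6 lists the log2 fold change fell with GC content, with Spearman's rho from -0.59 in ligand supply (n = 14 genes) to -0.90 in the anchoring partners (n = 14 genes), across genes that share the same 4 libraries.

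**Figure D5:**
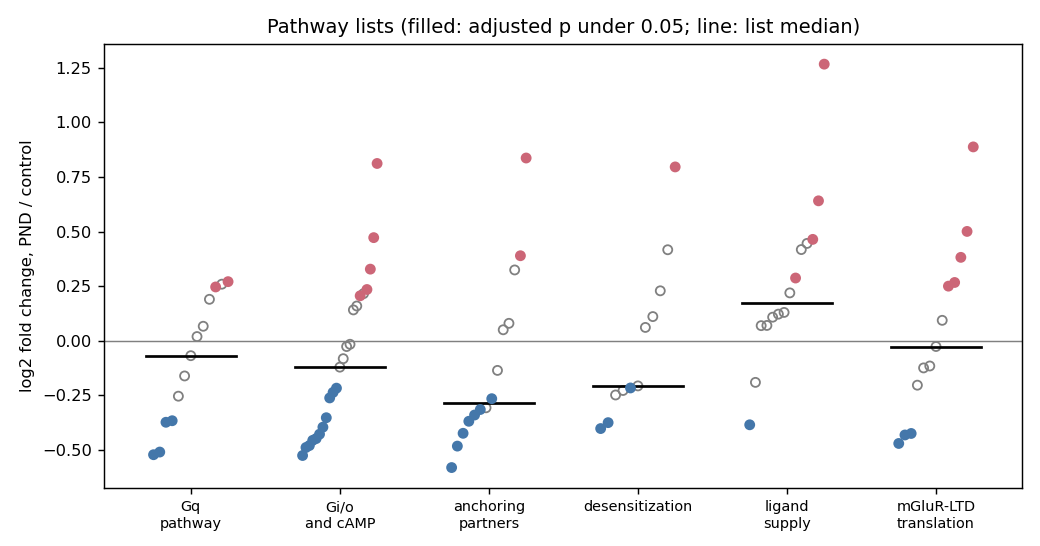
Log2 fold change (PND over control) of each gene in the 6 lists (points, filled red or blue where the gene was higher or lower at an adjusted p under 0.05 by edgeR, open where it did not pass), with the list median (line). The medians run from -0.29 for the anchoring partners to 0.17 for ligand supply.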

How the data were processed

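Poly(A) RNA from the hippocampus of 4 mice, captured on oligo(dT) beads, was read from both ends, and the authors aligned the reads to mm10 with HISAT. The authors deposited the count of reads per gene and mouse, without normalization. The submitters' processing notes name HISAT2 2.1.0, Bowtie2 2.2.3, TopHat2 and HTSeq 0.6.0 without their roles, and strand use is not given in the sources used here. The fold changes and p-values that the authors also list were not used.

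The tests used edgeR 4.0.16 under R 4.3.3 (filterByExpr at a minimum count of 10, TMM, glmQLFit and glmQLFTest, group as the only term). DESeq2 1.42.0 was an alternative. GC content and length came from GENCODE M21, and their trends, fitted per library with mgcv 1.9.3 (basis size 8), entered the corrected fit as offsets. Replicates differed by more than sampling noise (chi-square per degree of freedom 13.4 in control and 8.45 in PND mice). The fits were tested on simulated data. Without a simulated GC trend, edgeR found 87 of 200 changed genes and called 8 unchanged ones. A trend was then added to the PND libraries. There the fit without the correction found 118 changed genes and called 400 that counted as unchanged. The corrected fit found 84 and called 4. Genes moved by the trend alone counted as unchanged by construction, so the simulation cannot tell what the trend in these mice is.

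The members and lists were chosen with earlier results of these data known. Named in each list were up to 3 genes that passed with the changes furthest from 0, and for the receptor furthest from 0 in each group the 2 genes of nearest pattern. Markers are named where they passed or define a subfield. Other genes of the receptor family were not analysed here.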

Additional observations from a re-analysis of the deposited data

How the results depend on the processing

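Of the 12 alternatives, the sign of Grm5, Grm2 and Grm4 held in all, and Grm5 passed in 11, Grm4 in 8 and Grm2 in 7. Without a low-count filter, which raised the genes tested to 29300, 2665 genes passed and 1 receptor did, with Grm2 at -0.51 and Grm4 at -0.74 not passing. With the GC and length correction, 274 genes passed (93 higher and 181 lower, against 2249 and 2201) and 0 receptors. There Grm5 and the group I median were at 0.30, Grm2 at -0.25, Grm4 at -0.42, Grm3 at -0.12, Grm7 at -0.079 and the group III median at -0.38. Of the lists, 1 gene passed in each of Gq signaling, Gi/o signaling and ligand supply, and 0 in the others. With scaling by library totals, 59.4% of calls were higher, against 50.5%, the median of all genes was 0.06, and the receptors kept their calls. Gi/o signaling had 10 genes without a filter, and there were 7 desensitization genes with a mean of at least 1 CPM.

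The replicate numbers only name the mice. Same-numbered mice deviated together (r = 0.22 over 17144 genes), a hint from the data, not the design. With the replicate block 5279 genes passed, among them the same 3 receptors, and 7 desensitization genes. With the replicate block and the GC and length correction together, 2110 genes and 1 receptor passed. That was Grm5 at 0.30 (as was the group I median), with Grm2 at -0.26, Grm4 at -0.43, Grm3 at -0.13, Grm7 at -0.077 and the group III median at -0.38. The lists had 3 (Gq), 7 (Gi/o), 1 (anchoring), 0 (desensitization), 3 (ligand supply) and 3 (translation) genes.

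With each mouse left out in turn, 2408 (without the second control mouse) to 4105 genes passed, 2933 of them without the second PND mouse, and 2 to 3 receptors. The log2 fold change ran from 0.46 to 0.57 for Grm5, -0.73 to -0.31 for Grm2, -0.97 to -0.52 for Grm4, -0.27 to 0.26 for Grm3, -0.035 to 0.10 for Grm7 and -0.35 to 0.10 for Grm8. The medians ran from -0.50 to -0.026 in group II and -0.35 to -0.035 in group III. The lists ran from 6 to 11 (Gi/o), 3 to 5 (ligand supply) and 5 to 8 (translation) genes. Shares, in PND minus control percentage points, ran from -2.13 to 2.01 for Grm3, -0.54 to 1.05 for Grm7 and -0.42 to 0.12 for Grm8. The share of Grm7, 0.25 points higher in PND mice, was -0.023 with the longest transcript as length and -1.0001 with no length scaling. Grm8 had the fewest counts, and whether depth or the spread between mice limits it was not tested. Apart from the settings' own construction, causes were not tested.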
